A study of Solanum lycopersicum with 30 samples.

Results

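Glutamine synthetase joins ammonium to glutamate and makes glutamine, at the cost of ATP, and is the step by which plants bring ammonium into organic form. Glutamate synthase then passes the new nitrogen on to glutamate, so that both enzymes run as a cycle. Plants hold cytosolic forms of glutamine synthetase, which prevail in roots, and a plastid form, usually called GS2, which prevails in leaves and takes up the ammonium of photorespiration. In tomato gts1 encodes a cytosolic form and GS2 the plastid form.

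Both genes were followed in RNA from roots of tomato, Solanum lycopersicum, with 30 samples on 1 Affymetrix tomato array each. The members were chosen by the gene symbol in the platform annotation, which gives gts1 for 2 probe sets, called S1 and A1 here after the ends of their names, and GS2 for 1. They are 2 of 802 gene symbols and 3 of the 10038 plant probe sets on the array. RefSeq lists 1 transcript for gts1 and 2 for GS2. The annotation does not say where on the transcript, or on which strand, the S1 and A1 probes of gts1 lie.

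The arrays form 6 groups of 5 biological replicates. The mutant rmc is a line of tomato with reduced mycorrhizal colonization, and the wild type (WT) forms mycorrhizas. Plants of both were moved to soil of a commercial farm field at 8 weeks and stayed there for 5 weeks. A discrete patch of soil then received a high or a low amount of ammonium (high N, low N) or water, and the roots of the patch were cut out 24 h later. For rmc the labels give the ammonium as 65 ppm (high N) and 6.5 ppm (low N), and for WT as 100 µM and 10 µM. What the ppm are parts of is not given in the labels, so whether rmc and WT received the same doses cannot be told. Every difference between the N responses of rmc and WT may therefore carry a difference in dose as well. rmc is a single mutant line, and all plants, the water controls included, grew in field soil with its own microbes and nutrients.

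Values are MAS5 signals on a log2 scale, so a difference of 1 is a 2-fold difference. Each array had been scaled to 1 common mean, so the values are shares of an array's total and a change shared by all transcripts is not seen in them. All 3 probe sets read well above background on 30 of 30 arrays. The lowest reading was 5.01, in A1, and the 95th percentile of the 63 reporter control probe sets was at most 3.29 on any array. The roots are bulk tissue, in which fewer cells of a type and less RNA per cell cannot be told apart.

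The labelled tissue was set against lists of root and of shoot markers, whose probe sets differ in brightness and so have no order among themselves. Of 8 probe sets in the root list, 7 had median levels from 8.41 to 11.1, and ext1, an extensin gene, had a median of 1.86. In the shoot and leaf list of 6 photosynthesis probe sets, the chlorophyll-binding protein genes CAB5, CAB6A and CAB4 had medians of 1.99, 2.70 and 4.50, and CAB5 read 0 on 1 array. The others were PSBO and PSBR, photosystem II subunit genes, with medians of 5.04 and 10.3, and LOC543978 with 6.21.

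gts1 rose with high N in both genotypes, on both of its probe sets. In rmc the S1 signal was 9.13, 8.62, 9.62, 8.03 and 8.70 with water, 10.02, 10.22, 10.65, 10.67 and 8.85 with low N, and 11.17, 11.86, 11.23, 11.73 and 12.16 with high N. In WT it was 9.75, 9.62, 9.66, 9.10 and 9.64 with water, 10.67, 10.88, 9.66, 10.76 and 11.33 with low N, and 11.84, 11.74, 11.79, 11.13 and 11.32 with high N. Every high N array of a genotype lay above every water array of that genotype, whereas low N arrays overlapped the water arrays by 1 array each. How many of all probe sets separate groups so fully was not counted, here or in the comparisons below.

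With high N in rmc the S1 mean was 11.63 ± 0.42, against 8.82 ± 0.60 with water (SD, n = 5 each), a 7.02-fold rise (log2 difference 2.81, SE 0.32, limma adjusted p = 7.33e-06). With high N in WT it was 11.57 ± 0.32, against 9.55 ± 0.26 with water (SD, n = 5 each), a 4.03-fold rise (2.01, SE 0.32, limma adjusted p = 0.000751). The 95% interval of the fold ran from 4.47 to 11 in rmc and from 2.57 to 6.32 in WT. Over all 7528 probe sets tested, 3.28% were higher with high N in rmc and 8.66% in WT. By size of the log2 difference, S1 ranked 2 in rmc and 4 in WT among the 7528.

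The A1 probe set gave a similar picture at a lower signal. In rmc it read 5.80, 5.26, 5.75, 5.01 and 5.49 with water, 6.48, 6.69, 7.02, 7.13 and 5.36 with low N, and 7.36, 8.37, 7.57, 8.04 and 8.45 with high N. In WT it read 6.23, 6.06, 6.50, 5.73 and 6.20 with water, 6.89, 7.44, 6.26, 7.22 and 8.08 with low N, and 8.68, 8.14, 8.39, 7.59 and 7.43 with high N. Again the high N arrays stood clear of the water arrays in each genotype. Its rise with high N was 5.64-fold in rmc (log2 difference 2.5, SE 0.32, limma adjusted p = 6.02e-05) and 3.74-fold in WT (1.90, SE 0.32, limma adjusted p = 0.00128). The difference between S1 and A1 on the same array had an SD of 0.21 over 30 arrays, and the correlation of the pair was 0.984 over these arrays and 0.924 for deviations from the group means. The arrays that were low in a group on one probe set were therefore mostly low on the other, as rmc low N replicate 5 and WT low N replicate 3 show.

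**Figure D1:**
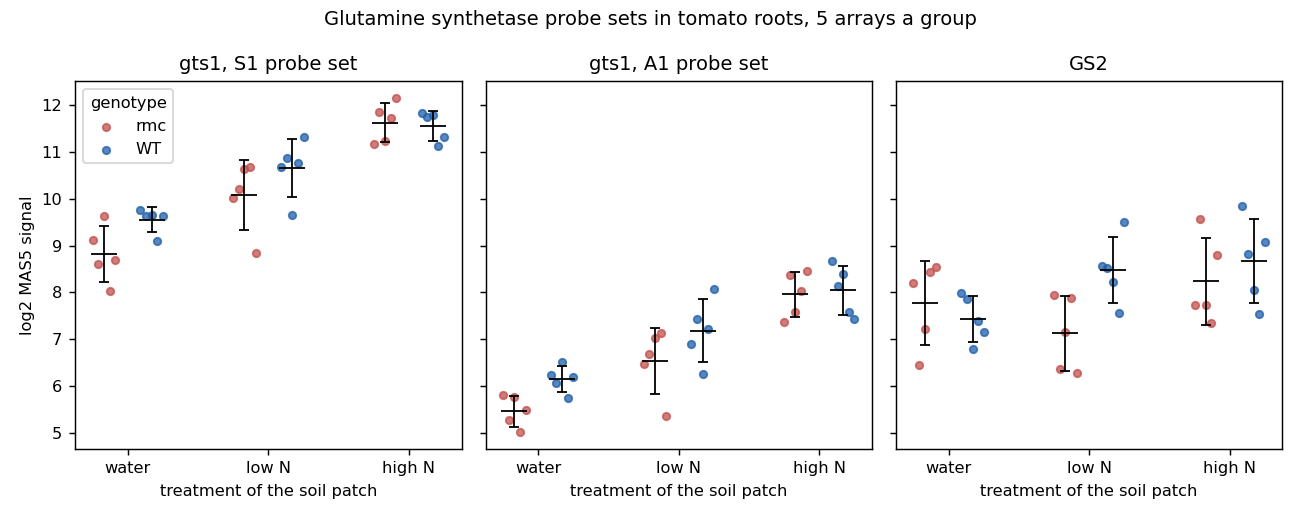
Log2 MAS5 signal (vertical axis) of the S1 and A1 probe sets of gts1 and of GS2 in roots with water, low N and high N. Points are arrays, red for rmc and blue for WT, and bars give the mean and SD of 5 arrays. The gts1 points climb from water over low N to high N, with all high N arrays of a genotype above all its water arrays, while the GS2 points of most groups overlap.

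The step to low N was of similar size in both genotypes and did not pass the test over all probe sets. With low N in rmc the S1 mean was 10.08 ± 0.74, against 8.82 ± 0.60 with water (SD, n = 5 each), a log2 difference of 1.26 (SE 0.32, limma adjusted p = 0.996). In WT it was 10.66 ± 0.62, against 9.55 ± 0.26 with water, a difference of 1.1 (SE 0.32, limma adjusted p = 0.759). Few probe sets of the array passed in these comparisons, 0.0133% in rmc and 0.0266% in WT, and by p-value S1 ranked 3 in rmc and 11 in WT among the 7528. Taken alone, the S1 difference had an exact permutation p = 0.0238 in rmc and the same value in WT, and 0.0571 after adjustment over all 27 exact tests. On S1 all 5 low N arrays of each genotype lay above the mean of its water arrays, and 4 of 5 lay above the highest water array. In rmc the lowest of them, at 8.85, barely exceeded the water mean of 8.82. A1 differed by 1.07 in rmc and 1.03 in WT (limma adjusted p = 0.996 and 0.759). On A1, 4 of 5 low N arrays in rmc and 5 of 5 in WT lay above the water mean.

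The low arrays in these groups carried weight. In rmc, low N replicate 5 read 8.85, and without it the difference was 1.57 and passed (limma adjusted p = 0.0423). In WT, low N replicate 3 read 9.66, inside the range of the water arrays, and without it the difference was 1.36. On the log2 scale the low N difference of S1 came to 44.9% of the high N difference in rmc and 55.0% in WT, and that of A1 to 43.0% and 54.3%.

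Between the N doses, gts1 rose with high N over low N in rmc, where the S1 means were 11.63 with high N and 10.08 with low N (log2 difference 1.55, SE 0.32, limma adjusted p = 0.031), and no array of one group reached the other (exact permutation p = 0.00794, the smallest that 5 against 5 arrays allow). A1 rose by 1.42 (SE 0.32, limma adjusted p = 0.0321), against a background of 0.598% of probe sets that were higher in this comparison. The call of S1 rested on each of several arrays, and that of A1 was lost in 6 of 10 fits without 1 array. Leaving out rmc low N replicate 1 or 5 gave a limma adjusted p of 0.0598 or 0.119. Leaving out replicate 2, 4 or 5 of the high N group of rmc gave 0.139, 0.062 or 0.163, and a fit of the compared groups only gave 0.343. In WT the corresponding S1 means were 11.57 and 10.66, a difference of 0.91 that did not pass (SE 0.32, limma adjusted p = 0.537), in a comparison where 0 of 7528 probe sets passed and 672 had an unadjusted p under 0.05.

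Averaged over both genotypes, a summary added after the values were seen and one that mixes the labelled doses, high N exceeded low N by 1.23 for S1 (SE 0.22, limma adjusted p = 0.00591) and by 1.15 for A1 (SE 0.23, limma adjusted p = 0.00726), with 6.02% of all probe sets higher. Both kept their call in each of the 20 fits without 1 low N or high N array. Low N exceeded water by 1.18 for S1 (limma adjusted p = 0.0396, with 0.0531% of probe sets higher) and by 1.05 for A1 (limma adjusted p = 0.0981). The low N call of S1 was not steady, since 16 of 20 fits without 1 array lost it, with limma adjusted p-values from 0.00308 to 0.125 over the 20.

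Between genotypes no difference of gts1 passed at any treatment. With water the S1 mean was 8.82 ± 0.60 in rmc and 9.55 ± 0.26 in WT (SD, n = 5 each), a difference of -0.74 (SE 0.32) that did not pass over all probe sets (limma adjusted p = 0.455, exact permutation p = 0.0476). Of the rmc water arrays, 3 lay below every WT water array and 1 above the WT mean. The difference of A1 was -0.68 (limma adjusted p = 0.524, exact permutation p = 0.0238). Adjusted over all 27 exact tests, these exact permutation p-values were 0.0756 for S1 and 0.0571 for A1. In this comparison 0.279% of probe sets were lower in rmc.

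At low N the S1 mean was 10.08 in rmc and 10.66 in WT (-0.58, SE 0.32, limma adjusted p = 0.359, with 1.42% of probe sets lower in rmc). At high N it was 11.63 in rmc and 11.57 in WT (0.06, SE 0.32, limma adjusted p = 0.956, with 0.465% of probe sets higher in rmc). The 95% interval at high N ran from -0.58 to 0.71 on the log2 scale, so a difference of up to 1.64-fold in favour of rmc lies within it. The response to high N exceeded that of WT by 0.80 in rmc (SE 0.45, limma adjusted p = 0.999), in a comparison where 0.0133% of probe sets were called, and the response to low N by 0.16 (SE 0.45, limma adjusted p = 0.953). The 95% interval of the high N difference ran from -0.12 to 1.72 and includes 0. That difference depended on the processing, at 1.34 with poly-A spike scaling (limma adjusted p = 0.186) and 0.45 with array weights (limma adjusted p = 0.998), and passed in neither.

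Ordered by mean S1 signal, the groups were rmc high N, WT high N, WT low N, rmc low N, WT water and rmc water. No step between neighbours in that order passed the test over all probe sets where the neighbours were compared. For rmc low N (8.85 to 10.67) and WT water (9.10 to 9.75), which no comparison sets against each other, the ranges overlapped.

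None of the GS2 differences between groups passed the test over all probe sets. In rmc its signal was 8.20, 6.45, 7.21, 8.43 and 8.55 with water, 7.94, 6.36, 7.16, 7.88 and 6.27 with low N, and 7.72, 9.58, 7.73, 7.34 and 8.80 with high N. In WT it was 7.99, 7.85, 6.78, 7.39 and 7.15 with water, 8.57, 8.52, 8.22, 7.56 and 9.51 with low N, and 9.86, 8.81, 8.05, 7.54 and 9.08 with high N. Arrays of 1 group lay far apart, from 7.34 to 9.58 with high N in rmc for example, and within each genotype the 3 treatments overlapped.

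In WT the GS2 mean was 8.67 ± 0.90 with high N, against 7.43 ± 0.50 with water (SD, n = 5 each), a difference of 1.23 (SE 0.49, limma adjusted p = 0.0721, exact permutation p = 0.0317), and 4 of 5 high N arrays lay above every water array. The call depended on the fit. It passed with array weights (1.21, limma adjusted p = 0.018) and in a fit of the compared groups only (limma adjusted p = 0.046). With low N the WT mean was 8.48 ± 0.71, a difference from water of 1.04 (SE 0.49, limma adjusted p = 0.759, exact permutation p = 0.0317). After adjustment over all 27 exact tests, the exact permutation p was 0.0571 for high N and for low N against water. High N and low N of WT differed by 0.19 (SE 0.49, limma adjusted p = 0.901), and the 95% interval of that difference ran from -0.80 to 1.19.

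In rmc no GS2 difference between treatments passed either. With high N its mean was 8.23 ± 0.92, against 7.77 ± 0.90 with water (SD, n = 5 each), a difference of 0.47 (SE 0.49, limma adjusted p = 0.591). With low N it was 7.12 ± 0.80, a difference from water of -0.64 (SE 0.49, limma adjusted p = 0.996). With high N it was above low N by 1.11 (SE 0.49, limma adjusted p = 0.173, exact permutation p = 0.103). The sizes were not steady, since array weights gave 0.43 for high N over low N and -0.11 for low N over water, and high N over water was 0.13 without rmc high N replicate 2. The 95% interval for high N over water, from -0.53 to 1.46, includes both no change and the size seen in WT.

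The GS2 means of the genotypes lay furthest apart at low N, at 7.12 ± 0.80 in rmc and 8.48 ± 0.71 in WT (SD, n = 5 each). All 5 rmc arrays lay below the WT mean and 3 lay below every WT array, but the difference of -1.35 (SE 0.49) did not pass over all probe sets (limma adjusted p = 0.16, exact permutation p = 0.0317). That exact permutation p was 0.0571 after adjustment over all 27 exact tests. With water GS2 differed by 0.33 (SE 0.49, limma adjusted p = 0.941) and with high N by -0.43 (SE 0.49, limma adjusted p = 0.776). The low N response of rmc minus that of WT was -1.69 (SE 0.69, limma unadjusted p = 0.0209 and adjusted p = 0.928). That value ranked 8 from the lowest of 7528, in a comparison where 0 probe sets were called and 184 had an unadjusted p under 0.05.

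Ordered by mean GS2 signal, the groups were WT high N, WT low N, rmc high N, rmc water, WT water and rmc low N, and the ranges of each pair of neighbours overlapped. Averaged over both genotypes, GS2 with high N exceeded water by 0.85 (SE 0.34), which missed the threshold (limma adjusted p = 0.0564), with 16.1% of all probe sets called higher. Without 1 array it passed in 7 of 20 fits, with adjusted p-values from 0.0306 to 0.127. Its mean over both genotypes differed between low N and water by 0.20 (SE 0.34, limma adjusted p = 0.904).

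**Figure D2:**
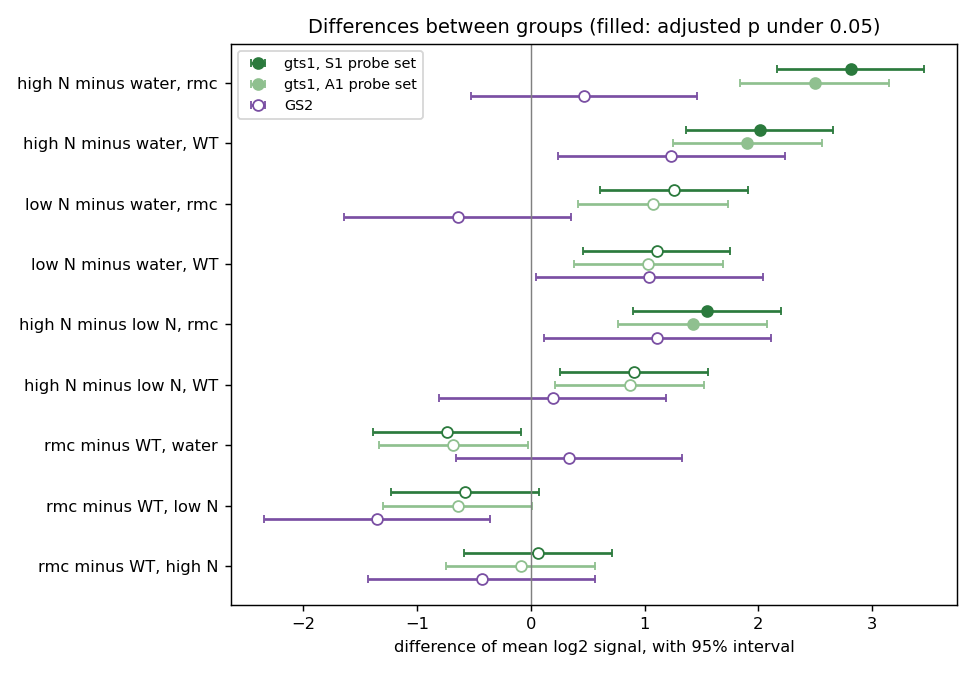
Difference of mean log2 signal (horizontal axis) with its 95% interval for the S1 and A1 probe sets of gts1 and for GS2 in 9 comparisons of groups, as named on the left. Filled points passed at an adjusted p under 0.05 over 7528 probe sets; these are both gts1 probe sets in rmc and WT for high N minus water and in rmc for high N minus low N, and no GS2 point.

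The contrast between the genes was examined within arrays, as the change in the log2 ratio of S1 to GS2. With high N in rmc that ratio stood 2.34 above water (exact permutation p = 0.0159) and with low N 1.91 above it (exact permutation p = 0.0238). In WT the corresponding changes were 0.78 (exact permutation p = 0.103) and 0.06 (exact permutation p = 0.913). After adjustment over the 18 such tests of both gts1 probe sets the lowest value was an exact p = 0.107, so an unequal response of the genes was not shown in either genotype.

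The genes differed in how much of their variation lay between treatments. For S1 76.8% of the variance over the 30 arrays lay between the 3 treatments, 3.45% between genotypes, 2.38% in their interaction and 17.3% within groups. That treatment share ranked 2 among 7528 probe sets, behind LOC543639 with 77.3%, and A1 ranked 5 with 73.3%. For GS2 the shares were 16.0% between treatments, 7.08% between genotypes, 14.4% in the interaction and 62.6% within groups. Its treatment share ranked 3445 and lay close to the median of all probe sets, 14.3%.

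The within-group SD was 0.80 for GS2, at percentile 95.1 of all probe sets tested, against a median of 0.23 over them. For S1 and A1 it was 0.52 each, at percentiles 87.8 and 87.9. All 3 probe sets thus varied more between replicates than most of the array, and the gts1 response stood out in spite of that spread.

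**Figure D3:**
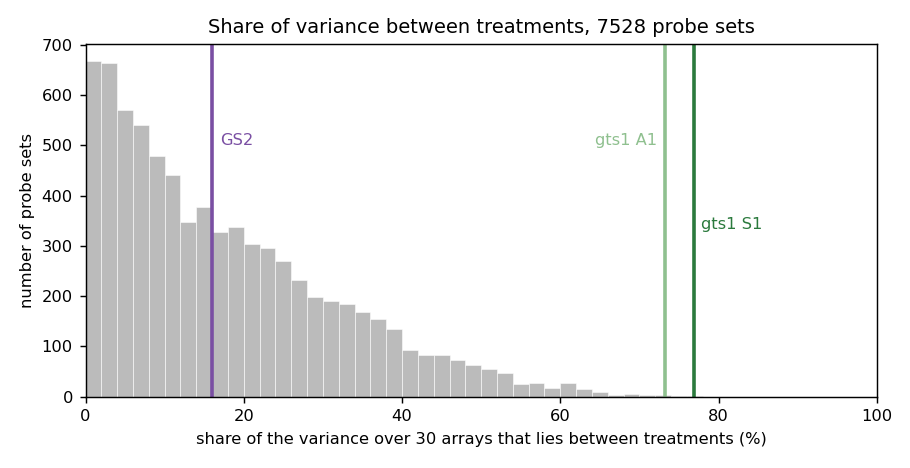
Number of probe sets (vertical axis) by the share of their variance over 30 arrays that lay between the 3 treatments (horizontal axis, percent), for the 7528 probe sets tested. Lines mark GS2 at 16.0%, near the median of 14.3%, and the A1 and S1 probe sets of gts1 at 73.3% and 76.8%, at the far right of the distribution.

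The probe sets most like S1 over the 30 arrays, besides A1, were an unnamed one (Pearson r = 0.946), and then AMT1-2, an ammonium transporter gene of the root (r = 0.876, Spearman rho = 0.892). The next named genes were LOC543639 (r = 0.834), MDHAR, a monodehydroascorbate reductase gene (r = 0.815), mMDH1, a mitochondrial malate dehydrogenase gene (r = 0.804), and GPI1 (r = 0.799). These values describe 30 arrays in which the treatments move both genes of a pair, and all genes of an array share its scaling. For deviations from the group means r was 0.849 for the unnamed probe set, 0.584 for AMT1-2 and 0.392 for MDHAR. The order by likeness thus changed once the group means were taken out, where AMT1-2 ranked 64.

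GS2 was not among the probe sets most like gts1. Its r with S1 was 0.482 over the 30 arrays, rank 997 of the other probe sets, and 0.316 for deviations from the group means. The probe set most like GS2 has no gene name (r = 0.888). Its most similar named genes were yfe37, for which RefSeq gives the synonym GAD3 (r = 0.848), GPXle-2 (r = 0.839), NMP1 (r = 0.826), GABA-TP2, which RefSeq also lists as GAME12 (r = 0.817), and MKK3 (r = 0.806). For deviations from the group means r was 0.862 for yfe37, 0.846 for GPXle-2, 0.787 for NMP1, 0.874 for GABA-TP2, 0.748 for MKK3 and 0.827 for the unnamed probe set, which describes arrays of the same group that were high or low together.

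The mean level of dividing cell markers moved with GS2. The mean of 7 root tip and dividing cell probe sets correlated with GS2 over the 30 arrays (r = 0.783, rho = 0.753) and for deviations from the group means (r = 0.724), against 0.367 and 0.085 for S1. That mean ranged from 7.74 to 9.34 with high N in rmc and from 7.20 to 9.0 with water in rmc. In WT it ranged from 8.21 to 9.22 with high N and from 7.71 to 8.42 with water. Of the 7 probe sets, 1 (PCNA, the replication clamp gene, 0.99) was called higher with high N in WT and 0 in rmc, beside 8.66% of all probe sets in WT and 3.28% in rmc. The others in WT ran from -0.35 for cdc2A-2 to 1.47 for P18, and none of the 7 read 0 on any array. In rmc the 7 ran from -0.16 for cdc2A-2 to 0.83 for P18. CDKA1 differed by -0.21 in WT and -0.12 in rmc, so the markers did not all go one way. The r of GS2 with each single marker is not given here.

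With that mean as a covariate in the fit, added after the data were seen, the GS2 difference between high N and water in WT was 0.58 (SE 0.36, limma adjusted p = 0.326) and that between rmc and WT at low N was -0.76 (SE 0.36, limma adjusted p = 0.38). The rise of S1 with high N was nearly as large as without it, 2.79 in rmc (limma adjusted p = 1.84e-05) and 1.96 in WT (limma adjusted p = 0.00351). The covariate itself averaged 8.70 with high N and 8.08 with water in WT. Such a fit can therefore take out part of a treatment difference, and it cannot separate the markers from the treatment. With it, the number of all probe sets called for high N against water in WT was 433, against 1374 without. The part of these markers in the GS2 values was not tested.

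**Figure D4:**
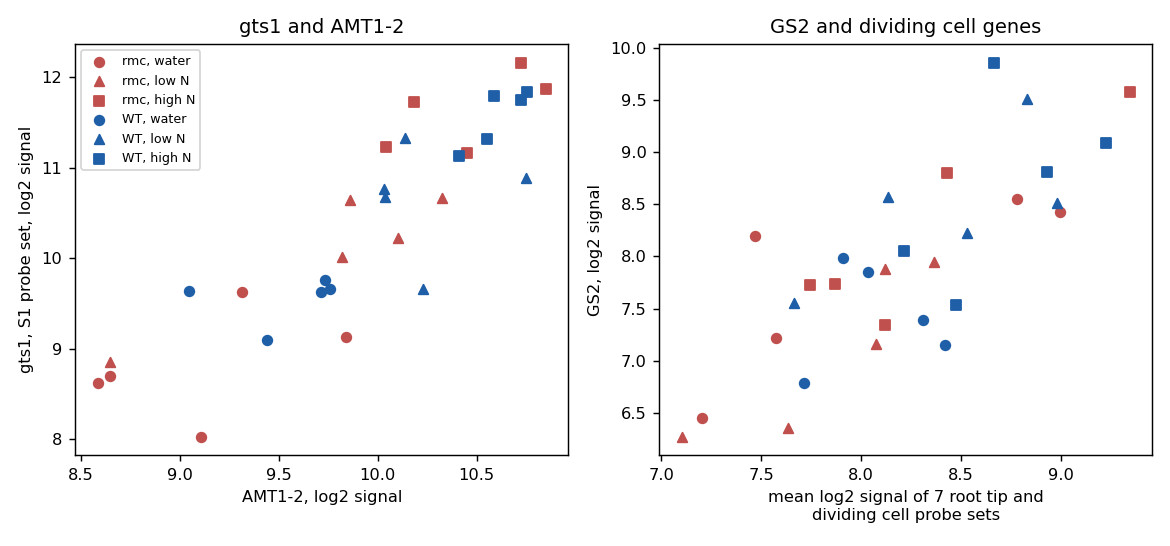
Left, S1 signal of gts1 (vertical axis) against AMT1-2 (horizontal axis), and right, GS2 signal against the mean of 7 root tip and dividing cell probe sets, all as log2 MAS5 signal on 30 arrays, with rmc in red and WT in blue. On the left the high N arrays (squares) gather at the top right and the water arrays (circles) at the bottom left; on the right the treatments are mixed along the slope.

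Array measures that bear on RNA preparation or on the tissue sampled differed between high N and water, and moved with gts1 and GS2. The GAPDH signal at the 3′ end minus that at the 5′ end averaged -0.144 with high N and 0.224 with water in rmc, and -0.118 with high N and 0.206 with water in WT. The poly-A spikes, added before amplification, averaged 8.06 with high N and 8.94 with water in rmc, and 8.24 with high N and 8.58 with water in WT. Scaling each array to these spikes shifted the median of all probe sets by 0.878 in rmc and 0.338 in WT for high N over water. The mean of the shoot and leaf list was 4.80 with high N and 5.24 with water in rmc, and 4.84 with high N and 5.32 with water in WT. The mean of the root list was 9.03 with high N and 8.48 with water in rmc, and 9.12 with high N and 8.57 with water in WT, and its r with S1 over the 30 arrays was 0.593. That list holds AMT1-2 and the phosphate transporter gene PT1, which were called higher with high N in each genotype, so its mean includes genes of the ammonium response. With the GAPDH measure, r over the 30 arrays was -0.798 for S1, -0.789 for A1 and -0.527 for GS2. With the spikes it was -0.633 for S1, -0.679 for A1 and -0.5045 for GS2. For deviations from the group means, GS2 had an r of -0.446 with the GAPDH measure and -0.429 with the spikes, and S1 of -0.328 and -0.048. The part of these measures in the results was not tested otherwise.

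Other genes of ammonium uptake and assimilation were few on the array by name. Of the uptake list only AMT1-2 had a symbol here, and it rose with high N in rmc (1.35, limma adjusted p = 0.00343) and WT (1.07, limma adjusted p = 0.00911). For nitrate reduction 0 probe sets had a symbol. Of 8 tested probe sets in the list of glutamate, glutamine and related amino acid metabolism, 1 rose with high N in rmc and 0 in WT, with a median difference of 0.34 and 0.23, beside -0.01 and -0.02 over all probe sets. Of all probe sets 3.28% were called higher in rmc and 8.66% in WT, shares against which the counts of so short a list say little. The riser was gdh1, a glutamate dehydrogenase gene (0.74 in rmc, limma adjusted p = 0.00123, and 0.24 in WT, limma adjusted p = 0.141). In that list gad2 entered by its symbol, for which RefSeq also gives GAME11, and yfe37 by a synonym.

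The member of that list with the highest differences was yfe37, at 1.86 in rmc and 1.53 in WT with high N, neither of which passed (limma adjusted p = 0.348 and 0.354). Among the amino acid permease genes AAP1, AAP2 and AAP3, which carry amino acids across membranes, 0 of 3 passed with high N in either genotype, again beside those shares. With high N in WT their differences ran from -0.42 for AAP3 to 0.44 for AAP1. With low N, 0 of these 12 probe sets passed in either genotype, beside 0.0133% of all probe sets in rmc and 0.0266% in WT. With so few calls on the whole array, that count says nothing particular about these genes. The low N differences of AMT1-2 were 0.65 in rmc and 0.70 in WT.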

How the data were processed

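The authors deposited 1 log2 signal per probe set and array. The tools named per the submitters' processing notes are Affymetrix Expression Console and MAS5, without versions. On a linear scale the mean of each array, trimmed by 2% at either end, is 500.04 or 500.05. Per the labels' protocols, 200 ng of total RNA was amplified. No label names a batch or scan, so none was examined. Precision is limited by the number of arrays.

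Of 10209 probe sets, 108 array and 63 reporter controls were left out, then the lowest 25% of 10038 by mean log2 signal (under 5.612), which left 7528 and all 3 member probe sets. A platform annotation gave 1 symbol for 909 probe sets, several for 0 and none for the others; 885 were found in RefSeq's gene table of assembly SLM_r2.1. No coordinates or sequences were used. All 30 arrays entered 1 fit of 6 group means with limma 3.58.1 in R 4.3.3 (lmFit, eBayes with an intensity trend); p-values are two-sided and adjusted by Benjamini-Hochberg over 7528 probe sets, with a threshold of 0.05. Single probe sets were also compared by two-sided exact permutation tests (scipy 1.17.1; 27 tests on log2 signals and 18 on ratios of gts1 to GS2). The fit was also run on simulated data with independent noise for each probe set and array. Such noise holds no variation shared by the probe sets of an array, and no result here rests on that run.

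The members and lists were chosen with earlier results of these data known. Besides the members, the named genes are list members and, for S1 and GS2, the 5 probe sets and 5 named genes of highest Pearson r. Replicates are biological per the labels. Same-numbered arrays deviated together (r over 0.1) in all 5 pairs between rmc and WT at high N (0.109 to 0.463), and in some but not all pairs between any other groups. The labels give no such pairing. Over all groups 40 of 75 pairs passed that cut, and the lowest values at high N lay only just above it, so a pairing was not established.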

Additional observations from a re-analysis of the deposited data

Results flagged for a closer look

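Of 18 groups of 5 arrays examined, 1 held an array far from the others. The S1 signal of gts1 in WT water replicate 4 was 9.10, while the others ran from 9.62 to 9.75, and the gap took 0.802 of the group's range, above Dixon's critical value of 0.71 for 5 values. Chance alone marks about 5% of such groups. Its A1 signal, 5.73, was the lowest of that group as well.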

How the results depend on the processing

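Of 209 refits of S1 and GS2 over 11 comparisons, other than leaving out an array, 200 kept direction and call. So did 248 of 260 fits without 1 array. Most of the differences counted did not pass in the main fit, so these totals say little about the calls. The S1 rise from water to high N stayed called in 10 of 10 refits in rmc and in WT. Its rise from low N to high N in rmc stayed called in 9 of 10, and in 5 of 10 fits without 1 array. Averages over both genotypes are outside these totals, and there the low N call of S1 held in 4 of 10 refits. With poly-A spike scaling GS2 passed for high N against water (1.34) and against low N (1.68) in rmc, and its difference between rmc and WT with water was -0.024, on a scale where all probe sets shift by 0.878, 0.565 and -0.359. With array weights that last value was -0.054, and GS2 passed for high N against water in WT (1.21), as it did in a fit of only these groups (1.23). In a fit of only the groups compared, S1 did not pass for high N against low N in rmc (1.55). The mean of both gts1 probe sets differed between rmc and WT at high N by -0.013, and A1 did so by 0.091 with spike scaling. With the root tip covariate GS2 differed between high N and low N in WT by -0.095. Sizes moved as well. Over these refits GS2 in rmc ran from 0.15 to 1.34 for high N against water, from 0.43 to 1.68 against low N and from -0.68 to -0.11 for low N against water, and without 1 array the first of these ran from 0.13 to 0.69. The difference of the high N responses of S1 ran from 0.45 to 1.34. The causes were not tested.

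Without 1 array each, S1 ranged from 1.24 to 1.70 for high N against low N in rmc, from 1.06 to 1.57 for low N against water in rmc, from -0.068 to 0.18 for rmc against WT at high N and from -0.10 to 0.46 for the difference of the low N responses. GS2 ranged from -0.10 to 0.48 for high N against low N in WT. A1 ranged from -0.24 to 0.068 for rmc against WT at high N and from -0.19 to 0.34 for the difference of the low N responses. Same-numbered arrays of different groups deviated together (r over 0.1) in 40 of 75 pairs, and 23 of 75 correlated best with their own number, so the numbers were not taken as a pairing over all groups; rmc and WT at high N, where all 5 pairs passed, kept their calls with the block (S1 0.065, limma adjusted p = 0.95). The replicate block left every call of S1 and GS2 within a genotype in place (GS2 for high N against water in WT: 1.23, limma adjusted p = 0.0604). Averaged over both genotypes, the block gave adjusted p-values of 0.0493 for GS2 at high N and 0.0806 for S1 at low N.

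The number of all probe sets called was less steady than gts1. For high N against water it was 1374 in WT (9 to 2757 over settings, 467 to 1681 without 1 array) and 327 in rmc (4 to 6411, and 52 to 1028), and for high N against low N in rmc 53 (0 to 3057, and 0 to 1051). With the block these counts were 1757, 613 and 213.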
